A study of Mus musculus with 24 samples.

Results

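Group 2 innate lymphoid cells (ILC2) and CD4 T cells were compared where both carried a reporter of Nmur1, the gene of a receptor for the neuropeptide neuromedin U (NMU). The comparison takes every library that the header of the deposited count table names ILC2 and every library it names NMUR1+, 16 of 24 libraries. They are paired by the mouse in that header, so that each of 8 mice gave 1 ILC2 and 1 NMUR1+ library. The cells came from the colonic lamina propria of Nmur1 iCre-eGFP mice, in which eGFP marks cells that use the Nmur1 locus. All mice had 3% DSS, an agent (dextran sulfate sodium) toxic to the gut lining, in the drinking water for 5 days. They then drank plain water for 3 days. Over that time mice 1 to 4 received NMU and mice 5 to 8 the vehicle phosphate-buffered saline (PBS), each intraperitoneally every other day. No uninjured mice are among the groups, and the labels give no age, sex or strain background. The design text speaks of 3 mice per treatment, whereas the labels name 8 mice, and the labels were followed. ILC2 had been gated as eGFP+ cells with CD45, CD90.2, CD127 and KLRG1 and without lineage markers, and the T cells as eGFP+ cells with CD45, CD3, CD5 and CD4. The remaining 8 libraries, NMUR1- CD4 T cells of the same mice, serve below for side values only.

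ILC2 are tissue-resident lymphocytes without a rearranged antigen receptor. They respond within hours to epithelial alarmins such as IL-33, IL-25 and TSLP and to neuropeptides. They release IL-5, IL-13 and amphiregulin under the direction of the transcription factor GATA3. CD4 T cells instead recognise peptides on MHC class II molecules through the T cell receptor (TCR) and its CD3 chains. In the gut they include regulatory, Th1, Th17 and Th2 cells. NMUR1 is a Gq-coupled receptor through which neurons that make NMU activate ILC2.

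Total counts ran from 8485266 to 13064665 in ILC2 and from 9759943 to 17379633 in NMUR1+ libraries, and levels are given in CPM (counts scaled to library size). NMUR1+ libraries held more RNA of some other cells. Immunoglobulin genes with Jchain took 0.784 to 30.4% of their counts and 0.0241 to 7.93% of the counts of ILC2 libraries, with the NMUR1+ library higher in 8 of 8 mice (exact sign-flip permutation test, two-sided, p = 0.0078, the smallest it can give; adjusted p = 0.0195). The summed level of 17 macrophage and dendritic cell markers was 1116 to 3500 CPM (median 2164) in NMUR1+, 184 to 1159 CPM (median 409) in ILC2 and 343 to 1147 CPM (median 516) in NMUR1- libraries, with none of the 17 at 0 in any population. Of 16 markers tested, 10 (62.5%) were higher in NMUR1+ libraries, against 17.1% of all genes tested. In ILC2 2 (12.5%, near the 11.2% of all genes) were higher, Zbtb46 (means of 83.9 against 27.4 CPM) and Xcr1 (44.1 against 14.2 CPM). NMUR1+ libraries also held counts for more genes, 13154 to 15664 against 10778 to 13736 (7 of 8 mice, exact p = 0.0156, adjusted p = 0.0313). The part of these differences in the results below was not tested. Given below are a fit without the 4 mice whose NMUR1+ library held over 20% immunoglobulin RNA (mice 1, 4, 5 and 7) and a fit with Jchain and Lyz2 as covariates. The first keeps 4 mice, whose NMUR1+ libraries still held up to 14.8% immunoglobulin RNA (mouse 8). Mouse 3, with the highest macrophage and dendritic cell sum (3500 CPM), is among them. Neither fit can tell the part of such RNA from the effect of fewer mice or more terms.

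Apart from Thy1, the sort markers given here followed the labels. Cd3e, a signalling chain of the TCR complex, was at 0 to 12.2 CPM (median 6.18) in ILC2 and at 697 to 1033 CPM (median 829) in NMUR1+ cells, and the libraries did not overlap (log2 difference, ILC2 minus NMUR1+, -7.58, SE 0.84, edgeR adjusted p = 4.8e-04). Cd4 (log2 -7.21) and Cd5 (log2 -11.22) differed in the same direction, Cd5 without a count in 6 of 8 ILC2 libraries and at most at 3.04 CPM, in that of mouse 7. Gata3, which specifies ILC2 and Th2 cells, was at 4270 to 6603 CPM (median 5794) in ILC2 and at 1099 to 1969 CPM (median 1527) in NMUR1+ cells (log2 1.89, SE 0.07, adjusted p = 2.4e-08). Il7r, which encodes CD127 of the ILC2 gate, was higher in ILC2 in 8 of 8 mice (log2 1.09, SE 0.13, adjusted p = 1.4e-04). Thy1, which encodes CD90 of the same gate, was higher in the T cells (48.3 to 105 against 180 to 325 CPM, log2 -1.49, SE 0.14, adjusted p = 2.2e-05). Gata3 was not gated on. The others were, and apart from Thy1 they check the labels and are no findings. CD90 was named in the ILC2 gate only, so the order of Thy1 RNA does not check the labels.

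Nmur1 (RefSeq GRCm38.p6 chromosome 1, 86386242 to 86389361, minus strand, protein coding) was the gene shared by design, and its level still differed. It was at 167 to 328 CPM (median 229) in ILC2, at 6.13 to 75.2 CPM (median 41.9) in NMUR1+ cells and at 1.60 to 7.84 CPM (median 3.49) in NMUR1- cells. Every ILC2 library lay above every NMUR1+ library (log2 2.76, SE 0.38, adjusted p = 5.6e-04; log2 2.44, adjusted p = 0.088, with Jchain and Lyz2 as covariates). NMUR1+ stood above NMUR1- by 3.17 on the log2 scale (adjusted p = 0.012), with the NMUR1+ library of mouse 1 (6.13 CPM) below the NMUR1- library of that mouse (7.18 CPM), against its label. Without mouse 1 the difference was 3.58 (adjusted p = 0.0016), and ILC2 stood above NMUR1+ by 2.504 (adjusted p = 2.6e-04). In bulk RNA, fewer cells with a transcript and less of it per cell cannot be told apart, here and for all genes below. The 250 bases before the first of 2 RefSeq starts of Nmur1 are shown because the reporter gate uses this locus. They lie at chr1:86389362-86389611 on the minus strand of GRCm38.p6 (RefSeq) and are written 5′ to 3′, with no capitals because they hold neither of the motifs searched further below.

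Nmur1: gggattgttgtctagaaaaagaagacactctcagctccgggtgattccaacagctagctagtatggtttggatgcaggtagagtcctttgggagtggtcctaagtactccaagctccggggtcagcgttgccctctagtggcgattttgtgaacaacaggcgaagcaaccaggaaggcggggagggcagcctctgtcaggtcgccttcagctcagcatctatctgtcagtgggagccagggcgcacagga

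**Figure D1:**
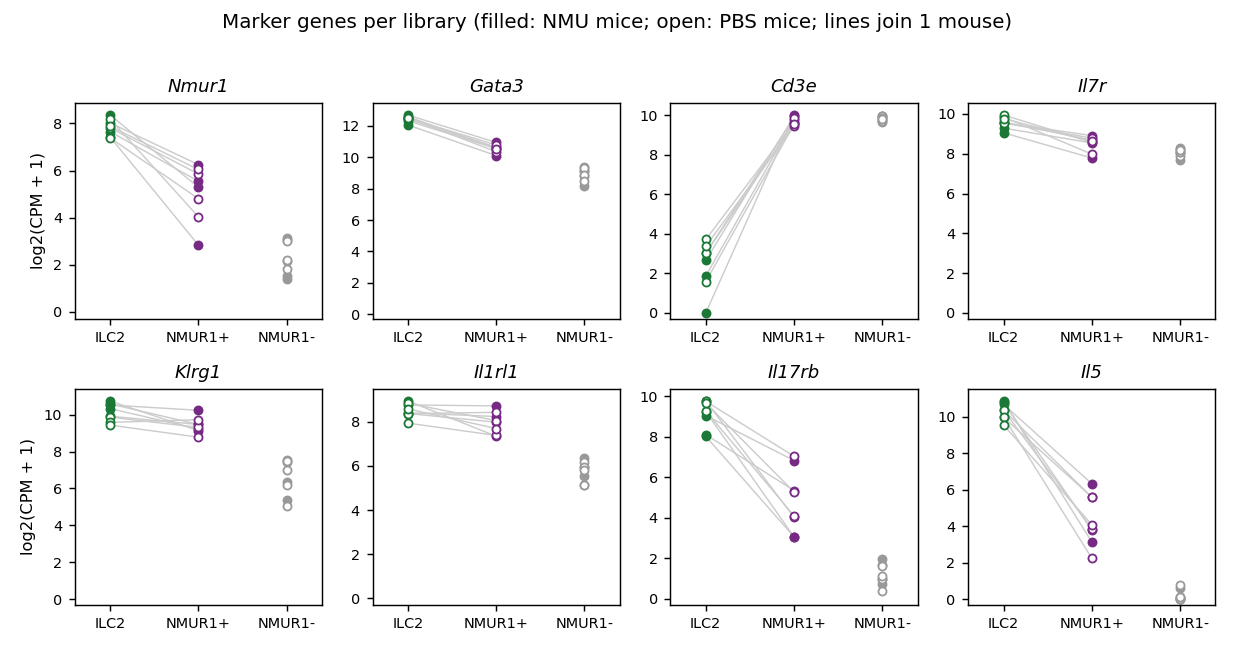
Levels of 8 marker genes as log2(CPM + 1) in each library of ILC2, NMUR1+ and NMUR1- cells; each point is 1 library, filled for NMU and open for PBS mice, and grey lines join the ILC2 and NMUR1+ library of 1 mouse. Gata3, Nmur1, Il17rb and Il5 separate ILC2 from NMUR1+ cells without overlap and Cd3e does so in the other direction, while the Klrg1 and Il1rl1 points of both populations overlap and lie above those of NMUR1- cells.

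Across all genes, 12909 were tested and 3646 (28.2%) differed between the populations at an adjusted p under 0.05 (edgeR quasi-likelihood test with the mouse as block, Benjamini-Hochberg adjustment over all genes tested, here and below). Of these, 1443 (11.2% of those tested) were higher in ILC2 and 2203 (17.1%) higher in NMUR1+ cells, and 2151 (16.7%) differed at least 2-fold. Genes were called of similar level where the 95% confidence interval of the difference lay within 2-fold in either direction and both populations averaged at least 10 CPM. By that measure 4625 genes (35.8%) were of similar level, 886 of them with a small difference that passed the test, and 5524 genes fell in neither class. The median log2 difference over all genes was -0.16. Without the 4 mice with over 20% immunoglobulin RNA the fit called 1387 genes, 657 higher in ILC2 and 730 higher in NMUR1+ cells. The other fits of 4 mice called 948 (NMU mice alone) and 2273 (PBS mice alone). Calls lost without the 4 mice, here and below, can thus follow from fewer mice and do not show the part of immunoglobulin RNA. With Jchain and Lyz2 as covariates the fit called 439. With these covariates 91 of the 188 genes named here no longer passed the test, 16 no longer met the criterion of similar level and 2 changed direction. Without the 4 mice, the calls of Ccr9, Csf2rb, Ifng, Il10, Il17a, Kif23, Klf5, Lif, Lta, Mki67, Penk, Prdm1, Ptgs2, Skap1, Snx9, Stab2, Stx11, Trgc2 and Txk did not pass. Neither did the small differences of Ets1, Fgl2, Il1rl1, Il2ra, Itgb7, Ldha, Sdc4 and Tnfrsf18. The calls of Dusp4, Gnaq, Icosl, Il13, Il1r1, Il23r and Il6st were lost as well and are marked beside their values.

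**Figure D2:**
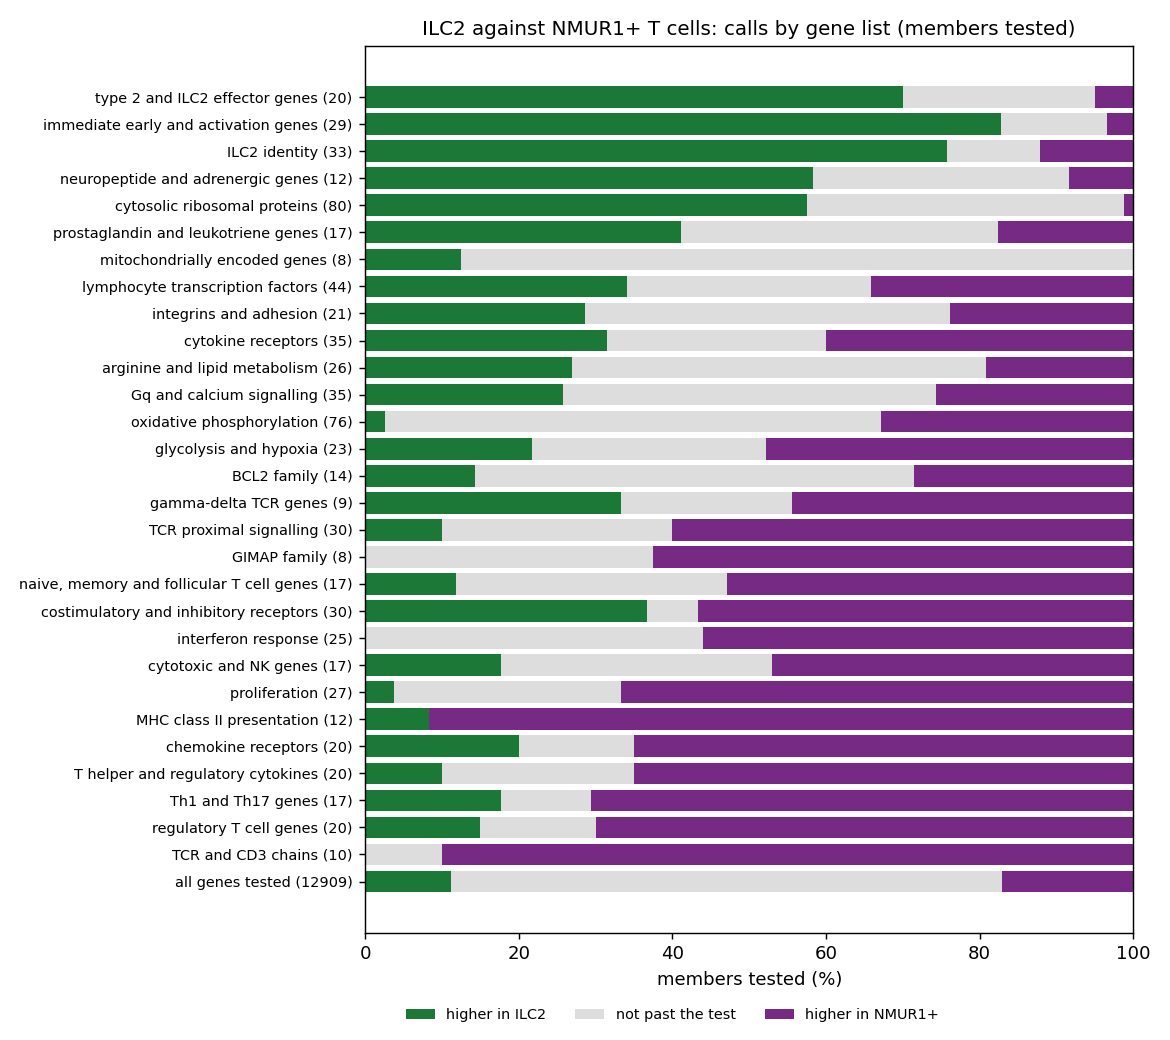
Share of the tested members of each gene list (number tested in brackets) that were higher in ILC2 (green), higher in NMUR1+ cells (purple) or not past the test (grey), ordered by median difference, with all 12909 genes at the bottom. Over 70% of tested members were called higher in ILC2 in the lists of immediate early genes (82.8%) and ILC2 identity genes (75.8%), against 11.2% of all genes.

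The antigen receptor separated the populations widely. Of 10 genes of TCR and CD3 chains and coreceptors tested, 9 (90%) were higher in NMUR1+ cells, against 17.1% of all genes. None was higher in ILC2 (median log2 -7.29, against -0.16 over all genes). The T cells were gated on CD3 and CD4 and ILC2 on the lack of lineage markers. Members for CD3 and CD4 therefore check the labels and are no findings. Trac, the constant part of the TCR alpha chain, was at 4.52 to 12.2 CPM in ILC2 and at 1059 to 1588 CPM in NMUR1+ cells (log2 -7.37, SE 0.23, adjusted p = 1.1e-08). The beta chain constant genes were closer. Trbc1 RNA was at 124.2 to 313 CPM (median 245) in ILC2 and at 139 to 223 CPM (median 205) in NMUR1+ cells, overlapping ranges with a 95% interval of the log2 difference from -0.04 to 0.50. Trbc2 was lower in ILC2 (96.2 to 253 against 295 to 462 CPM, log2 -1.16, SE 0.15, adjusted p = 1.8e-04) by far less than Trac. These constant genes are near-identical copies, so the split of reads between them is uncertain.

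RNA of the gamma and delta TCR loci was found in the innate cells. Trgc4, a gamma chain constant gene, was at 140 to 419 CPM (median 299) in ILC2 and at 0.143 to 8.25 CPM (median 2.34) in NMUR1+ cells (log2 6.98, SE 0.53, adjusted p = 2.3e-05). Trgc1 was likewise higher in ILC2 (log2 3.79, SE 0.39). The delta variable segment Trdv4 was at 168.01 to 239 CPM against 0 to 4.16 CPM (log2 7.53, SE 0.51, adjusted p = 7.2e-06). Trgc2 went the other way at low level (0 to 1.58 against 1.79 to 22.9 CPM, log2 -3.64, adjusted p = 0.023), a call that was lost without mouse 5. Of 9 genes of the gamma-delta list tested, 3 (33.3%) were higher in ILC2, against 11.2% of all genes, and 4 (44.4%) in NMUR1+ cells, against 17.1%. Without the 4 mice with over 20% immunoglobulin RNA these counts were 3 and 0, in a fit that called 657 and 730 of all genes. Counts do not tell rearranged from unrearranged transcripts, and for unstranded reads neighbouring or antisense transcripts count as well.

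Of 30 kinases and adaptors that act just below the TCR, 18 (60%) were higher in NMUR1+ cells, against 17.1% of all genes, and 3 (10%) were higher in ILC2, near the 11.2% of all genes. Similar level was found for 13 (43.3%), near the 35.8% of all genes. Lck, the Src kinase that phosphorylates CD3 chains, was at 51.5 to 159 CPM (median 128) in ILC2 and at 1091 to 1696 CPM (median 1478) in NMUR1+ cells (log2 -3.70, SE 0.14, adjusted p = 2.9e-08). Cd2, an adhesion and costimulatory receptor (log2 -9.58), Sit1, a transmembrane adaptor (log2 -4.48), Trat1 (log2 -5.97) and the adaptor Lat (log2 -2.06) were also higher in NMUR1+ cells. Zap70, the kinase that Lck activates, was at 280 to 392 CPM in ILC2 and at 318 to 469 CPM in NMUR1+ cells (95% interval of the log2 difference -0.52 to -0.01). The exchange factor Vav1 (0.03 to 0.47) and the adaptor Lcp2 (-0.54 to -0.15) were of similar level as well. Txk, a kinase of the Tec family, and the adaptor Skap1 were higher in ILC2 by under 2-fold (log2 0.57 and 0.60).

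Of the 33 ILC2 identity genes tested, 25 (75.8%) were higher in ILC2, against 11.2% of all genes (median log2 1.53). In NMUR1+ cells 4 (12.1%) were higher, against 17.1%, and 5 (15.2%) were of similar level, against 35.8%. Ptgdr2, which is widely used as an ILC2 marker, did not pass the filter on low counts. Without the 4 mice with over 20% immunoglobulin RNA, 21 of 33 were higher in ILC2 and 2 in NMUR1+ cells. Of all genes that fit called 657 and 730. Hs3st1, a heparan sulfate sulfotransferase, was at 1390 to 2829 CPM in ILC2 and at 5.25 to 42.7 CPM in NMUR1+ cells (log2 6.63, SE 0.43, adjusted p = 1.2e-05). Arg1, which breaks down arginine, was at 272 to 518 CPM against 0.870 to 12.7 CPM (log2 6.27, SE 0.49). Kit, the stem cell factor receptor, was at 304 to 534 CPM against 10 to 57.6 CPM (log2 4.24, SE 0.38). Lmo4, a LIM-domain transcriptional cofactor, had a log2 difference of 4.99 (SE 0.34), and Stab2, a scavenger receptor, one of 6.81 (SE 1.17). All 8 mice had the same direction for each of these genes.

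Members of the same list were higher in the T cells too. Icos, a costimulatory receptor found on both cell types, was at 714 to 1479 CPM in ILC2 and at 1427 to 2237 CPM in NMUR1+ cells (log2 -1.0, SE 0.15, adjusted p = 5.7e-04). Ly6a (log2 -0.80), the chemokine receptor Ccr9 (log2 -3.59, adjusted p = 0.031) and Csf2rb, the beta chain of the GM-CSF receptor (log2 -4.00, adjusted p = 0.021), completed the 4. The call of Ccr9 was lost without mouse 4, 5, 6 or 8 and that of Csf2rb without mouse 4. For Csf2rb, which myeloid cells also use, the fitted difference changed sign with Jchain and Lyz2 as covariates (log2 0.18, adjusted p = 0.996).

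The receptors for the epithelial alarmins did not behave alike. Il1rl1, the IL-33 receptor ST2, was at 245 to 493 CPM (median 362) in ILC2, at 162 to 422 CPM (median 259) in NMUR1+ cells and at 34.0 to 82.4 CPM (median 58.2) in NMUR1- cells. The ranges of ILC2 and NMUR1+ cells overlapped and the difference stayed within 2-fold (log2 0.55, 95% interval 0.18 to 0.92, adjusted p = 0.032). The difference no longer passed the test without mouse 2, 3, 5, 6 or 8, in the NMU or PBS mice alone, or without the 4 mice with over 20% immunoglobulin RNA. With 1 mouse left out the gene remained of similar level in 5 of 8 fits. Crlf2, the TSLP receptor, was at 28.2 to 49.3 and 34.1 to 65.4 CPM (95% interval of the log2 difference -0.68 to 0.10). Il17rb, a subunit of the IL-25 receptor, was by contrast at 257 to 862 CPM in ILC2 and at 7.27 to 129 CPM in NMUR1+ cells (log2 4.35, SE 0.61, adjusted p = 0.0014). Its level in NMUR1- cells was 0.295 to 2.86 CPM. Klrg1, an inhibitory receptor gated on in ILC2 only, was at 689 to 1701 CPM in ILC2, at 438 to 1200 CPM in NMUR1+ cells and at 32.0 to 186 CPM in NMUR1- cells. The NMUR1+ cells, which were not gated on it, stood above NMUR1- cells by 2.88 on the log2 scale (adjusted p = 8.6e-05) and below ILC2 by less (log2 0.70, SE 0.17, adjusted p = 0.0092).

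The promoters of Il1rl1 are shown because its RNA was of similar level in both populations. RefSeq gives 2 starts, with windows at chr1:40429320-40429569 and chr1:40439379-40439628 on the plus strand of GRCm38.p6. Capitals mark exact matches to AGATAA, a site of GATA factors, and TGTGGT, a site of RUNX factors, each searched on both strands, and positions count back from the base before the start (-1).

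Il1rl1 start 1: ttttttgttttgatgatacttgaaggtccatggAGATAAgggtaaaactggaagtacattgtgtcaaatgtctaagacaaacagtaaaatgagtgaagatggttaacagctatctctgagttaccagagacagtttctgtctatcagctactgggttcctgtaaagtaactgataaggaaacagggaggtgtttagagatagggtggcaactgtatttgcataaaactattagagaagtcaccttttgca
Il1rl1 start 2: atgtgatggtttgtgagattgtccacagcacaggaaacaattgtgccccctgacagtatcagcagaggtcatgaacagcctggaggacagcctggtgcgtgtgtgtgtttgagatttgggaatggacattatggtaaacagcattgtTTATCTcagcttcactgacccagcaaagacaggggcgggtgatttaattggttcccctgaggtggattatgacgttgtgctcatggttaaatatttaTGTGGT

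The first window holds AGATAA at -217, and the second holds it on the opposite strand at -103 and TGTGGT at -6. A match is a description of these letters only. AGATAA occurred in 9.99% of all 32851 promoter windows of this length and in 6.97% of the 746 windows of genes at least 2-fold higher in ILC2. It occurred in 8.08% of the 1226 windows of genes at least 2-fold higher in NMUR1+ cells and in 5.65% of the 4798 windows of genes of similar level. TGTGGT occurred in 14.0%, 10.2%, 13.0% and 11.3% of the same sets.

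Cytokine receptors in general were split. Of 35 tested, 11 (31.4%) were higher in ILC2, against 11.2% of all genes, and 14 (40%) higher in NMUR1+ cells, against 17.1%. Similar level was found for 14 (40%), near the 35.8% of all genes (median log2 -0.08). The IL-2 receptor chains Il2ra (784 to 1228 against 581 to 915 CPM, 95% interval of the log2 difference 0.25 to 0.59) and Il2rg (0.04 to 0.47) and the IL-4 receptor Il4ra (-0.44 to 0.28) were of similar level. Higher in ILC2 were Il9r, the IL-9 receptor (log2 2.44, SE 0.23), Tnfrsf25, the receptor of TL1A (log2 1.54, SE 0.14), and Il10ra, the ligand-binding chain of the IL-10 receptor (log2 1.33, SE 0.19). Higher in NMUR1+ cells were Il23r (0 to 17.2 against 24.5 to 85.5 CPM, log2 -8.28, SE 1.22) and Il12rb2 (log2 -7.85, SE 1.02), through which Th17 and Th1 cells sense their cytokines. Il21r was higher in them too (log2 -4.31, SE 0.44). Il1r1, the signalling IL-1 receptor (log2 -6.38), Il1r2, its decoy (log2 -4.21), and Il6st, the gp130 chain shared by IL-6 family receptors (log2 -3.82), were higher in NMUR1+ cells as well. Without the 4 mice with over 20% immunoglobulin RNA, 6 and 4 of 34 were called, and the calls of Il23r, Il1r1 and Il6st were lost. That fit called 657 and 730 of all genes, against 1443 and 2203 in the fit of 8 mice.

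Type 2 and other ILC2 effector genes were mostly higher in the innate cells, 14 of 20 tested (70.0%), against 11.2% of all genes (median log2 2.82). In NMUR1+ cells 1 (5%) was higher, against 17.1% of all genes. Il5, the eosinophil growth factor, was at 751 to 1868 CPM (median 1319) in ILC2, at 3.74 to 79.8 CPM (median 14.8) in NMUR1+ cells and at 0 to 0.738 CPM in NMUR1- cells (log2 6.07, SE 0.63, adjusted p = 3.1e-04). Il13, which acts on goblet cells and smooth muscle, was at 121 to 505 CPM against 0.143 to 45.2 CPM (log2 4.94, SE 0.78, adjusted p = 0.0026). Il4 was at 7.22 to 57.9 CPM against 0.285 to 9.57 CPM (log2 3.79, SE 0.50). Csf2, which encodes GM-CSF, was at 5.25 to 34.7 CPM against 0 to 0.584 CPM (log2 6.29, SE 0.77). Bmp2, a growth factor for epithelium and stroma, had no count in 5 of 8 NMUR1+ libraries, at most 3.38 CPM, in that of mouse 8, and 23.5 to 84.4 CPM in ILC2 (log2 8.19, SE 0.82). Areg, the epidermal growth factor receptor ligand amphiregulin, was at 208 to 740 CPM (median 334) against 95.2 to 195 CPM (median 133), without overlap (log2 1.38, SE 0.20, adjusted p = 4.7e-04). Its level in NMUR1- cells was 14.1 to 89.5 CPM. Il2, the T cell growth factor, was higher in the innate cells (4.45 to 113 against 0.818 to 7.32 CPM, log2 3.26, SE 0.44), as were Lif (log2 4.21) and Ccl1, a ligand of CCR8 (log2 4.20). The call of Il13 was lost without the 4 mice with over 20% immunoglobulin RNA. In that fit 10 of 20 members, and 657 of all genes, were higher in ILC2.

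The promoter of Il13 is shown as that of an effector gene higher in ILC2. Its window lies at chr11:53634703-53634952 on the minus strand of GRCm38.p6 and holds TGTGGT at -91 and AGATAA at -81. That of Lck, higher in the T cells, lies before the first of its RefSeq starts at chr4:129573642-129573891 on the minus strand and holds TGTGGT at -58. The windows of Il5 and Gata3 and those of the other starts of Lck and Nmur1 were searched too and held neither motif.

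Il13: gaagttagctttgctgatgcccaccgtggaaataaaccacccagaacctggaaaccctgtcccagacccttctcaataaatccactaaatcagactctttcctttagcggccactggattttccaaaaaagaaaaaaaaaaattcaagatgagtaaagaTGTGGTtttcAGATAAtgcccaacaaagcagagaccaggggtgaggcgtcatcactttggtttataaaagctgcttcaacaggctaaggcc
Lck: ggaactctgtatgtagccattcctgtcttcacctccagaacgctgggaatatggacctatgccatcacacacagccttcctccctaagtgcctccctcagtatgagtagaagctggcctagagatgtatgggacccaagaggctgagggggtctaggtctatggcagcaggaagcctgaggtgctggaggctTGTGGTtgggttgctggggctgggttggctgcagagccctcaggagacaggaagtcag

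**Figure D3:**
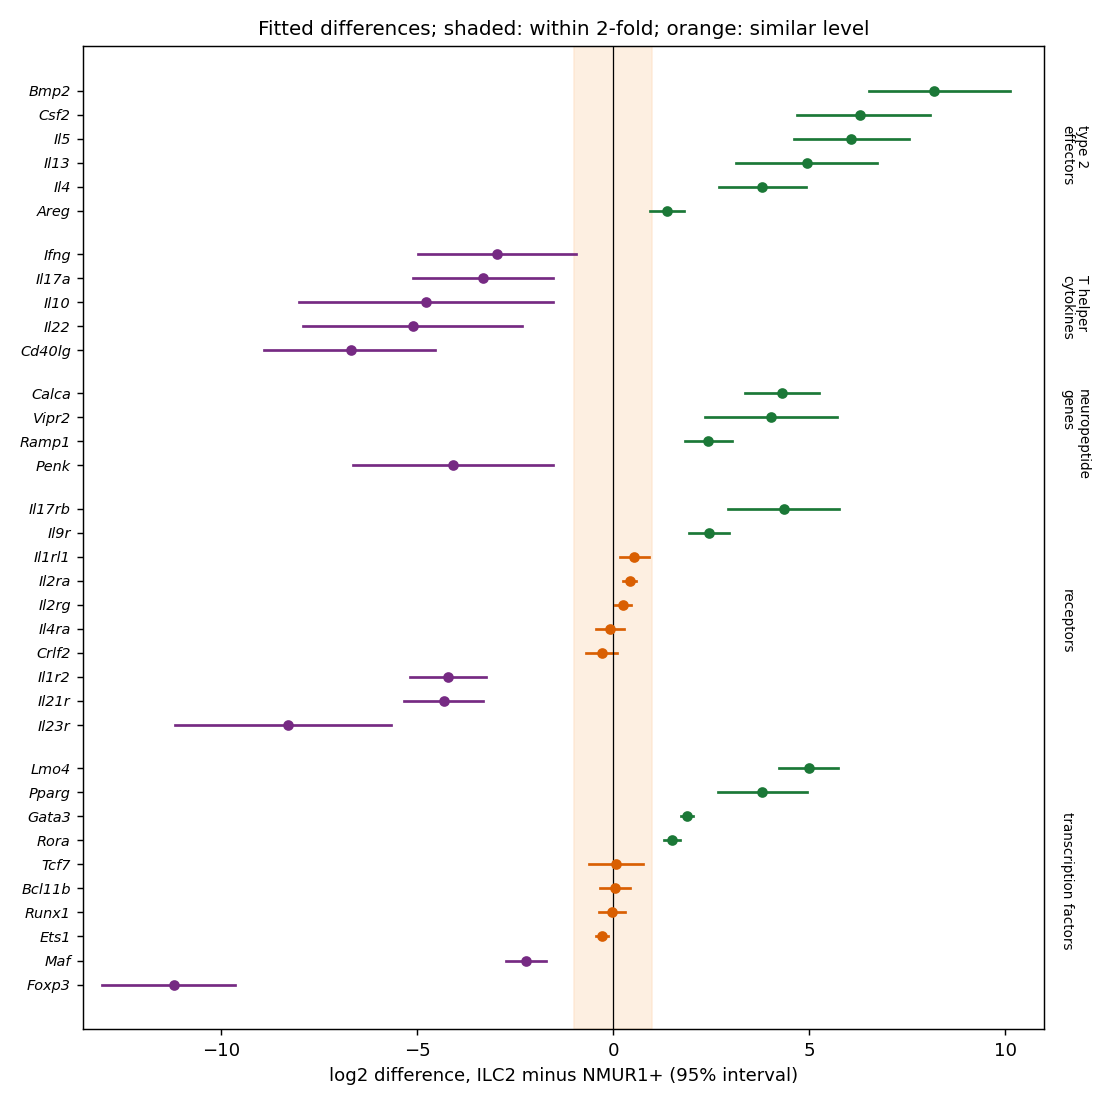
Fitted log2 difference (ILC2 minus NMUR1+) with its 95% interval for effector, cytokine, neuropeptide, receptor and transcription factor genes; green is higher in ILC2, purple higher in NMUR1+ cells and orange of similar level, and the shaded band is 2-fold either way. The type 2 effector genes lie right of the band except Areg, whose interval begins at 0.94, while Il1rl1, Il2ra, Il2rg, Il4ra, Crlf2, Tcf7, Bcl11b, Runx1 and Ets1 lie inside it.

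Neuropeptide and adrenergic genes, Nmur1 among them, were mostly higher in ILC2, 7 of 12 tested (58.3%), against 11.2% of all genes (median log2 1.51). In NMUR1+ cells 1 (8.33%) was higher, against 17.1% of all genes. Of 28 listed, 16 did not pass the filter on low counts. Calca, which encodes the neuropeptide CGRP, was at 145.5 to 670 CPM (median 331) in ILC2, at 5.62 to 59.2 CPM (median 14.3) in NMUR1+ cells and at 0.241 to 3.19 CPM in NMUR1- cells (log2 4.30, SE 0.42, adjusted p = 8.9e-05). The parts of the CGRP receptor, Calcrl (40.5 to 70.9 against 7.59 to 27.8 CPM, log2 1.5, SE 0.24) and Ramp1 (67.3 to 205 against 10.4 to 50.1 CPM, log2 2.43, SE 0.27), were also higher in ILC2. So was Vipr2, a receptor of vasoactive intestinal peptide (log2 4.02, SE 0.77). Penk, the precursor of enkephalins, went the other way, at 1.57 to 151 CPM (median 44.7) in ILC2 and at 153 to 886 CPM (median 306) in NMUR1+ cells. Its libraries did not overlap (log2 -4.08, SE 1.09, adjusted p = 0.029), yet the call was lost without mouse 1, 5, 6 or 8. For Penk the fitted difference was larger than the ratio of the medians, and the reason was not tested. Its ILC2 libraries were at 66.1 to 151 CPM in the 4 NMU mice and at 1.57 to 23.3 CPM in the 4 PBS mice, without overlap. The NMUR1+ libraries were at 153 to 879 and 226 to 886 CPM in the same order. Pcsk1, a prohormone convertase, was at 118 to 311 CPM in ILC2 and 33.7 to 106 CPM in NMUR1+ cells of the 4 NMU mice, and at 23.4 to 36.9 against 35.1 to 109 CPM in the 4 PBS mice. ILC2 thus lay above the NMUR1+ library of the same mouse in 4 of 4 NMU mice and below it in 4 of 4 PBS mice. Neither the mean difference (log2 0.52, SE 0.50, adjusted p = 0.48) nor its dependence on treatment (extra log2 difference in NMU mice 2.43, SE 0.43, adjusted p = 0.13) passed the test.

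Transcription factors of lymphocytes were divided evenly (median log2 0.01). Of 44 tested, 15 (34.1%) were higher in ILC2, against 11.2% of all genes, and 15 (34.1%) higher in NMUR1+ cells, against 17.1%. Similar level was found for 13 (29.5%), against 35.8% of all genes. Beside Lmo4 and Gata3, ILC2 had more RNA of Pparg, a lipid-sensing nuclear receptor (29.5 to 66.8 against 0.552 to 8.12 CPM, log2 3.81, SE 0.52), and of Rora, which ILC2 need for their development (1681 to 2252 against 591 to 905 CPM, log2 1.5, SE 0.09). Id2, an inhibitor of E proteins (log2 0.88, SE 0.09), Hlf (log2 1.81, SE 0.14) and Ikzf3 (log2 1.62, SE 0.13) were also higher in ILC2. NMUR1+ cells had more of Foxp3, the factor of regulatory T cells, at 154 to 307 CPM against 0 to 0.916 CPM, with no count in 6 of 8 ILC2 libraries (log2 -11.19, SE 0.75, adjusted p = 1.2e-05). They also had more of Maf (21.7 to 42.7 against 109 to 291 CPM, log2 -2.22, SE 0.23), Prdm1, which encodes Blimp-1 (log2 -1.72), and the paralogs Stat5a and Stat5b, which act below the IL-2 and IL-7 receptors (log2 -1.66 and -1.61). Of similar level were Bcl11b, a factor of T cell and ILC2 commitment (58.6 to 164 against 62.3 to 103 CPM, 95% interval of the log2 difference -0.33 to 0.44), Runx1 (-0.35 to 0.30), Ets1 (-0.43 to -0.13) and Bcl6 (-0.14 to 0.47). Tcf7, which encodes TCF-1, was at 19.2 to 89.9 CPM in ILC2 and at 17.2 to 70.2 CPM in NMUR1+ cells (-0.62 to 0.76). In NMUR1- cells it was at 127 to 263 CPM, above every library of the other populations. Tbx21, the Th1 factor, was at 15.2 to 82.3 and 30.1 to 62.9 CPM (-0.83 to 0.66). It remained of similar level in 5 of 8 fits with 1 mouse left out.

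T helper and regulatory cytokines were mostly higher in the T cells, 13 of 20 tested (65%), against 17.1% of all genes (median log2 -2.92). In ILC2 2 (10%) were higher, near the 11.2% of all genes. Il10, the anti-inflammatory cytokine, was at 0 to 176 CPM (median 12.8) in ILC2 and at 238 to 713 CPM (median 347) in NMUR1+ cells. In NMUR1- cells it was at 78.0 to 289 CPM. The libraries of ILC2 and NMUR1+ cells did not overlap (log2 -4.77, SE 1.38, adjusted p = 0.039), but the adjusted p rose above 0.05 without mouse 1, 2, 5, 6 or 8. Il22, which acts on the epithelium (0 to 20.8 against 47.7 to 157 CPM, log2 -5.10, SE 1.21), and Cd40lg, which licenses B cells and dendritic cells (0 to 4.00 against 29.4 to 139 CPM, log2 -6.68, SE 0.96), were higher in NMUR1+ cells. So were Il17a (log2 -3.30, adjusted p = 0.013) and the death ligand Fasl (log2 -3.61, adjusted p = 3.4e-05). Ifng was at 0 to 23.2 CPM against 10.4 to 124.7 CPM (log2 -2.95, SE 0.89, adjusted p = 0.036), a call lost without mouse 2, 3, 5, 7 or 8. The 2 genes higher in ILC2 were Tnfsf14, which encodes LIGHT (80.3 to 128 against 1.38 to 9.87 CPM, log2 4.21, SE 0.39), and Lta, lymphotoxin alpha (log2 1.72, SE 0.34). The partner Ltb was of similar level (539 to 1632 against 922 to 1466 CPM, 95% interval of the log2 difference -0.55 to 0.10).

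Of 20 regulatory T cell genes tested, 14 (70%) were higher in NMUR1+ cells, against 17.1% of all genes (median log2 -3.57). In ILC2 3 (15%) were higher, near the 11.2% of all genes, and 4 (20%) were of similar level, against 35.8%. Ctla4, an inhibitory receptor, was at 20.3 to 247 CPM against 1604 to 2622 CPM (log2 -5.19, SE 0.55, adjusted p = 3.3e-04). Tnfrsf4, the costimulatory receptor OX40, was at 7.25 to 93.6 CPM against 2362 to 3710 CPM (log2 -6.40, SE 0.54, adjusted p = 8.8e-05). Lrrc32, which presents latent TGF-beta (log2 -9.36), and Ikzf2, which encodes Helios (log2 -1.52), were higher in NMUR1+ cells. The 3 higher in ILC2 were Ccr8, Il2ra and Tnfrsf18, the last 2 not without the 4 mice with over 20% immunoglobulin RNA. Tnfrsf18, the receptor GITR, was at 1105 to 2432 CPM in ILC2 and at 1089 to 1509 CPM in NMUR1+ cells (95% interval of the log2 difference 0.16 to 0.55).

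Costimulatory and inhibitory receptors and their ligands were mostly unequal between the populations. Of 30 tested, 11 (36.7%) were higher in ILC2, against 11.2% of all genes, and 17 (56.7%) higher in NMUR1+ cells, against 17.1%. Similar level was found for 2 (6.67%, against 35.8% of all genes). Receptors and ligands of 1 pair could lie on opposite sides. Tnfsf4, the ligand of OX40, was at 9.41 to 85.8 CPM in ILC2 and at 1.93 to 6.96 CPM in NMUR1+ cells (log2 2.99, SE 0.40, adjusted p = 2.5e-04), opposite to its receptor Tnfrsf4. Icosl, the ligand of ICOS, was at 13.4 to 64.6 CPM against 6.19 to 55.4 CPM (log2 1.55, SE 0.36, adjusted p = 0.0087), opposite to Icos, although its call was lost without the 4 mice with over 20% immunoglobulin RNA. Pdcd1, which encodes PD-1, was higher in ILC2 (1039 to 2076 against 159 to 581 CPM, log2 2.00, SE 0.23, adjusted p = 1.2e-04). Its ligand Cd274 was of similar level (70.8 to 167 against 84.1 to 197 CPM, 95% interval of the log2 difference -0.33 to 0.14). Cd200r1, an inhibitory receptor, was higher in ILC2 (log2 1.66). Higher in NMUR1+ cells were the inhibitory receptors Tigit (21.0 to 217 against 808 to 1436 CPM, log2 -4.05, SE 0.38) and Lag3 (log2 -5.10, SE 0.85) and the costimulatory receptors Cd28 (log2 -1.07) and Tnfrsf9, or 4-1BB (log2 -1.38).

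Chemokine receptors were mostly higher in the T cells. Of 20 tested, 13 (65%) were higher in NMUR1+ cells, against 17.1% of all genes, and 4 (20%) higher in ILC2, against 11.2% (median log2 -2.41). Ccr8 was at 1916 to 3043 CPM in ILC2 and at 259 to 827 CPM in NMUR1+ cells (log2 2.35, SE 0.20, adjusted p = 1.4e-05). Cxcr6 was at 1793 to 3992 against 735 to 1524 CPM (log2 1.24, SE 0.10). Ccr6 (log2 -9.74), a receptor of Th17 cells for CCL20, Gpr15 (0 to 4.11 against 133 to 286 CPM, log2 -7.39, SE 0.96), which guides T cells to the colon, and Ccr2 (48.2 to 231 against 647 to 1884 CPM, log2 -3.23, SE 0.17) were higher in NMUR1+ cells. Ccr4, a receptor of Th2 cells and ILC2, was of similar level (115 to 206 against 68.7 to 200 CPM, 95% interval of the log2 difference 0.07 to 0.76). Among 21 adhesion genes, 9 (42.9%) were of similar level, against 35.8% of all genes. Of the 21, 6 (28.6%) were higher in ILC2, against 11.2%, and 5 (23.8%) higher in NMUR1+ cells, against 17.1%. The gut-homing integrin pair Itga4 (137 to 275 against 167 to 256.1 CPM) and Itgb7 (1064 to 1460 against 897 to 1180 CPM) and the hyaluronan receptor Cd44 (400 to 618.2 against 352 to 532 CPM) were of similar level. Itgae, the CD103 chain that binds E-cadherin, was at 0 to 10.7 CPM in ILC2 and at 73.3 to 238 CPM in NMUR1+ cells (log2 -5.55, SE 0.82, adjusted p = 0.0018). Itgb3, an integrin beta chain, was higher in ILC2 (log2 1.69, SE 0.15).

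Immediate early genes, which cells switch on within minutes of stimulation and also during dissociation and sorting, were the list with the largest share of members higher in ILC2. Of 29 tested, 24 (82.8%) were higher in ILC2, against 11.2% of all genes, and 1 (3.45%) higher in NMUR1+ cells, against 17.1% (median log2 1.62). Without the 4 mice with over 20% immunoglobulin RNA 24 were higher in ILC2 as well, in a fit that called 657 of all genes higher there. Nr4a1, an orphan nuclear receptor, was at 3530 to 9197 CPM (median 5410) in ILC2, at 582 to 1272 CPM (median 938) in NMUR1+ cells and at 385 to 708 CPM (median 568) in NMUR1- cells (log2 2.62, SE 0.15, adjusted p = 6.8e-07). Nr4a2 (210 to 1155 against 42.4 to 91.3 CPM, log2 3.00, SE 0.24), Atf3, a stress-induced factor (611 to 1432 against 79.3 to 255 CPM, log2 2.68, SE 0.16), and the AP-1 subunits Fosb (log2 2.38), Fosl2 (log2 1.97), Fos (log2 1.81) and Junb (log2 1.71) were higher in ILC2 without overlap. Jund, an AP-1 subunit that is not strongly induced, was of similar level (120 to 205 against 81.6 to 255.7 CPM, 95% interval of the log2 difference -0.19 to 0.56). Dusp4, a phosphatase that ends MAP kinase signals, was the member higher in NMUR1+ cells (49.2 to 214 against 195 to 398 CPM, log2 -1.50, SE 0.35, adjusted p = 0.011); its call was lost without the 4 mice with over 20% immunoglobulin RNA. Handling time per population is not given in the labels, and its part in these differences was not tested.

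**Figure D4:**
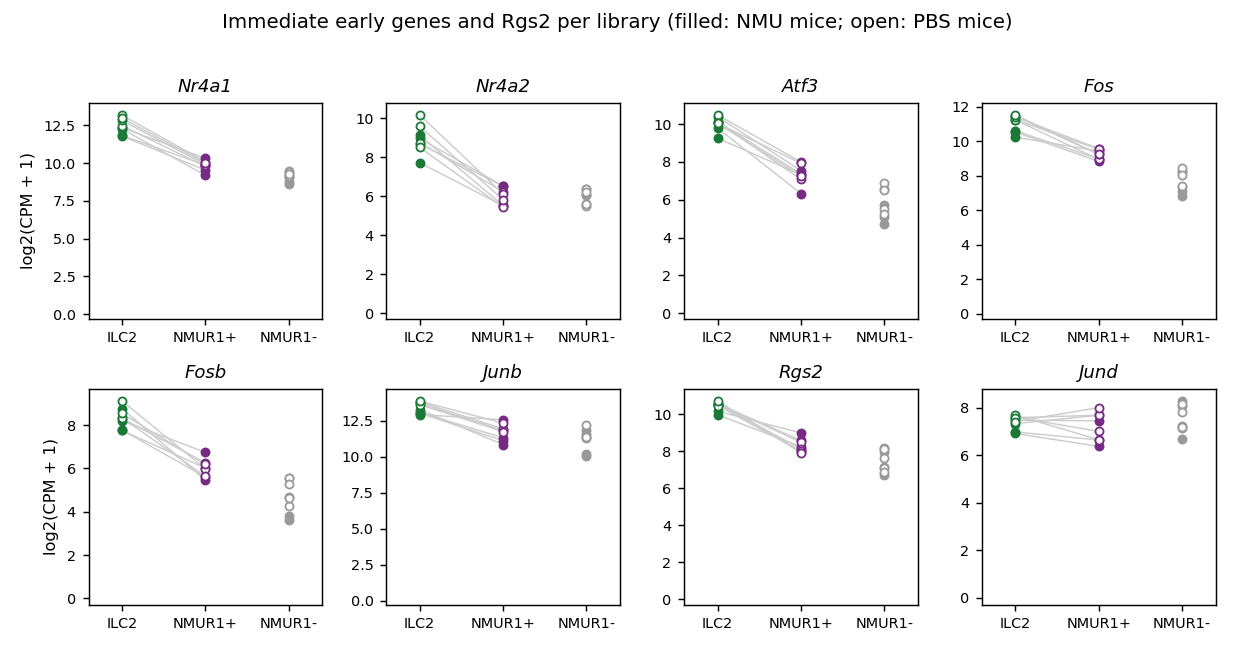
Levels of 7 immediate early genes and Rgs2 as log2(CPM + 1) in each library; filled points are NMU and open points PBS mice, and grey lines join the ILC2 and NMUR1+ library of 1 mouse. For every gene but Jund the 8 ILC2 points lie above the 8 NMUR1+ points.

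Genes of Gq and calcium signalling, the pathway that NMUR1 uses, were divided. Of 35 tested, 9 (25.7%) were higher in ILC2, against 11.2% of all genes, 9 (25.7%) were higher in NMUR1+ cells, against 17.1%, and 10 (28.6%) were of similar level, against 35.8% (median log2 -0.20). Gnaq, the Gq alpha subunit itself, was at 62.8 to 216 CPM in ILC2, at 36.3 to 61.6 CPM in NMUR1+ cells and at 12.4 to 28.0 CPM in NMUR1- cells (log2 1.33, SE 0.26, adjusted p = 0.0029; lost without the 4 mice with over 20% immunoglobulin RNA). Rgs2, which shortens Gq signals, was at 1003 to 1679 CPM against 241 to 508 CPM (log2 2.16, SE 0.16, adjusted p = 5.1e-06). Itpr2, a calcium channel of the endoplasmic reticulum, was higher in ILC2 as well (log2 1.02, SE 0.14). Rgs16 (log2 -6.67), Rgs10 (log2 -1.51) and the protein kinase C gene Prkch (160 to 357 against 483 to 823 CPM, log2 -1.33, SE 0.15) were higher in NMUR1+ cells. The G protein subunit Gna13 was of similar level (480 to 577 against 404 to 595 CPM).

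Lipid mediator genes were higher in ILC2 in 7 of 17 tested (41.2%, against 11.2% of all genes) and in NMUR1+ cells in 3 (17.6%, near the 17.1% of all genes; median log2 0.34). Alox5, which makes leukotrienes (9.58 to 69.7 against 0 to 4.33 CPM, log2 4.75, SE 0.82), the prostacyclin receptor Ptgir (134 to 279 against 4.28 to 50.3 CPM, log2 3.85, SE 0.32), the cysteinyl leukotriene receptor Cysltr1 (log2 2.33, SE 0.33) and the cyclooxygenase Ptgs2 (log2 2.00, SE 0.40) were higher in ILC2. Ptger2, a receptor of prostaglandin E2, was higher in NMUR1+ cells (log2 -0.67, SE 0.17, adjusted p = 0.015; not past the test without the replicate block). Hpgds, which makes prostaglandin D2, and Lta4h, which makes leukotriene B4, were of similar level (95% intervals of the log2 difference -0.54 to 0.76 and -0.09 to 0.38).

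Killer cell genes were mixed. Of 17 tested, 3 (17.6%) were higher in ILC2, against 11.2% of all genes, and 8 (47.1%) higher in NMUR1+ cells, against 17.1%. Gzmb, a cytotoxic granule protease, was at 7.24 to 35.1 CPM in ILC2 and at 694 to 2617 CPM in NMUR1+ cells (log2 -6.44, SE 0.20, adjusted p = 1.1e-08). The receptors Klrb1b (133 to 290 against 2.39 to 27.8 CPM, log2 4.69, SE 0.40) and Klrk1, or NKG2D (63.9 to 289 against 6.47 to 25.4 CPM, log2 3.37, SE 0.20), were higher in ILC2. Nkg7, a granule membrane protein, was of similar level (88.1 to 328 against 162 to 294 CPM).

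Proliferation genes were higher in the T cells in 18 of 27 tested (66.7%), against 17.1% of all genes (median log2 -1.91). In ILC2 1 (3.7%, against 11.2%) was higher, Kif23, a kinesin of cell division. Mki67 was at 4.78 to 82.6 CPM in ILC2 and at 86.7 to 145 CPM in NMUR1+ cells (log2 -2.12, SE 0.42, adjusted p = 0.0049). Top2a, a topoisomerase of dividing cells, was at 21.7 to 167 against 170 to 340 CPM (log2 -1.66, SE 0.29). The replication clamp Pcna was of similar level (95.2 to 162 against 124.7 to 171 CPM). Of 25 interferon response genes, 14 (56%, against 17.1% of all genes) were higher in NMUR1+ cells, among them the GTPase Igtp (log2 -2.0, SE 0.18). None was higher in ILC2, and 8 (32%) were of similar level, near the 35.8% of all genes. Of 14 BCL2 family genes tested, 2 (14.3%) were higher in ILC2, against 11.2% of all genes. More of them, 4 (28.6%), were higher in NMUR1+ cells, against 17.1% (median log2 -0.53). Bcl2, which blocks apoptosis, was at 40.6 to 156 CPM in ILC2 and at 6.06 to 36.0 CPM in NMUR1+ cells (log2 3.08, SE 0.25, adjusted p = 8.0e-06). Bcl2l11, which encodes its antagonist BIM, was higher in ILC2 too (162 to 255 against 55.5 to 129 CPM, log2 1.31, SE 0.17). GIMAP genes encode GTPases of lymphocyte survival. Of 8, 5 (62.5%, against 17.1% of all genes) were higher in NMUR1+ cells, among them Gimap4 (53.3 to 210 against 751 to 1238 CPM, log2 -3.14, SE 0.18). Similar level was found for 4 (50%, against 35.8%).

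Oxidative phosphorylation and ribosomal protein genes differed little in size, although many passed the test. Of 76 oxidative phosphorylation genes tested, 68 (89.5%) were of similar level, and of 80 cytosolic ribosomal protein genes 76 (95%), against 35.8% of all genes. Of the oxidative phosphorylation genes 25 (32.9%, against 17.1% of all genes) were higher in NMUR1+ cells and 2 (2.63%, against 11.2%) in ILC2. The ribosomal genes had a median log2 difference of 0.36. Of them 46 (57.5%, against 11.2% of all genes) were higher in ILC2 and 1 (1.25%, against 17.1%) in NMUR1+ cells. Without the 4 mice with over 20% immunoglobulin RNA 4 of 81 were higher in ILC2, in a fit that called 657 of all genes higher there. Of 23 glycolysis and hypoxia genes, 12 (52.2%, against 35.8% of all genes) were of similar level, among them Ldha (95% interval of the log2 difference 0.23 to 0.62). Of the 23, 11 (47.8%, against 17.1% of all genes) were higher in NMUR1+ cells and 5 (21.7%, against 11.2%) in ILC2. Hif1a, the hypoxia factor, was at 277 to 675 CPM in ILC2 and at 1151 to 1746 CPM in NMUR1+ cells (log2 -1.49, SE 0.13, adjusted p = 1.4e-05), while Egln3, a prolyl hydroxylase that marks HIF proteins for decay, was higher in ILC2 (log2 1.36, SE 0.13). Among 26 genes of arginine and lipid metabolism, 7 (26.9%) were higher in ILC2, against 11.2% of all genes, and 5 (19.2%) in NMUR1+ cells, near the 17.1% of all genes. Slc7a8, an amino acid transporter, was at 63.8 to 344 CPM in ILC2 and at 3.42 to 37.0 CPM in NMUR1+ cells (log2 4.14, SE 0.32, adjusted p = 6.7e-06).

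MHC class II genes were higher in NMUR1+ libraries in 11 of 12 tested (91.7%, against 17.1% of all genes, median log2 -2.23). Cd74, the invariant chain, was at 1558 to 5734 CPM in ILC2, at 5384 to 13566 CPM in NMUR1+ cells and at 1404 to 3731 CPM in NMUR1- cells (log2 -1.81, SE 0.26). H2-Ab1, a class II beta chain, was at 308 to 1552, 1924 to 5372 and 489 to 1178 CPM (log2 -2.52, SE 0.31). The summed macrophage and dendritic cell markers given above were also highest in NMUR1+ libraries, and their part in these values was not tested. The exception was H2-Oa, a chain of the peptide-loading modulator, at 56.5 to 122 CPM in ILC2 and at 4.85 to 26.4 CPM in NMUR1+ cells (log2 2.78, SE 0.37, adjusted p = 2.6e-04).

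The genes with the largest differences were named by rule from those with no overlap between libraries, the same sign in 8 mice and at least 10 CPM in the higher population. The rule leaves out immunoglobulin and TCR genes and segments, pseudogenes, predicted genes, clone names and the markers of other cells. Among the TCR segments so left out, Trbv3 averaged 55.1 CPM in NMUR1+ cells with no count in ILC2 (at least 1736-fold). In ILC2 these were Mycn, a MYC family factor, Rab27b, a GTPase of granule secretion, Bmp2, Fam184b, the retinoid receptor Rxrg, Runx1t1, the adhesion molecules Igsf5 and Cntn1, the factor Klf5 and Stab2. Mycn was at 6.87 to 54.9 CPM in ILC2 and had no count in the 8 NMUR1+ libraries, at least 897-fold higher when the floor is set at 3 counts for the 8 libraries together. Igsf5 was at 145.7 to 326 CPM against 0 to 4.16 CPM (log2 7.40, SE 0.53), Rab27b at 43.2 to 185 CPM against 0 to 3.15 CPM (log2 8.79, SE 0.88) and Rxrg at 53.5 to 157 CPM against 0 to 3.28 CPM (log2 7.78, SE 0.88). Klf5 (log2 7.04, SE 1.01) was at 51.3 to 169 CPM against 0 to 16.4 CPM.

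In NMUR1+ cells the 10 genes left by these exclusions were Sh2d1a, Ky, Frmd5, Cd5, Foxp3, Atp6v0d2, Ccl20, Sgip1, Smpdl3b and Glyat. Sh2d1a, which encodes the SLAM adaptor SAP, was at 36.8 to 85.6 CPM and without a count in ILC2, at least 1618-fold higher. Ky and Frmd5, at 14.4 to 46.7 and 11.5 to 45.0 CPM, had no count in ILC2 either (at least 1019-fold and 929-fold) and were at 1.45 to 12.7 and 1.77 to 14.7 CPM in NMUR1- cells. The chemokine Ccl20, a ligand of CCR6, was at 7.25 to 27.4 CPM against none (at least 471-fold). Atp6v0d2, a proton pump subunit, was at 9.06 to 44.9 CPM against none (at least 527-fold). These folds cover counting error only.

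Genes of similar level in ILC2 and NMUR1+ cells were then set beside NMUR1- cells, to show what the reporter-positive T cells had in common with the innate cells and not with their reporter-negative neighbours. Both comparisons use the NMUR1+ libraries, so their values are given side by side and no overlap was tested. In the side comparison 2589 of 13015 genes (19.9%) differed and 1462 (11.2%) were higher in NMUR1+ than in NMUR1- cells. Of the 4625 genes of similar level, 423 (9.15%) were higher in NMUR1+ than in NMUR1- cells, a share no larger than that of all genes, and 417 of them remained after the exclusions of the naming rule. The 12 with the largest such difference were Lat2, Cd93, Il1rl1, Gas7, Lyn, Ccrl2, Trf, Fgl2, Pcyt1a, Sdc4, Slc31a2 and Gas2l3.

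Lat2, an adaptor of antigen and Fc receptors, was at 50.2 to 119 CPM in ILC2, at 32.3 to 106 CPM in NMUR1+ cells and at 5.22 to 25.1 CPM in NMUR1- cells. The first pair overlapped (95% interval of the log2 difference 0.02 to 0.95), and NMUR1+ stood above NMUR1- by 2.36 (adjusted p = 1.9e-05). The kinase Lyn was at 57.6 to 145.7, 47.4 to 124.3 and 11.8 to 32.4 CPM in the same order. Ccrl2, a receptor that binds chemerin, was at 326 to 692, 314 to 503 and 80.1 to 183 CPM. Sdc4, a heparan sulfate proteoglycan, was at 150 to 372, 199 to 363 and 30.8 to 214 CPM. The 12 genes were chosen for their NMUR1+ to NMUR1- difference, so their order against NMUR1- cells is a description. All NMUR1- libraries lay below all others for 9 of them, the exceptions being Cd93, Trf and Sdc4. This order follows in part from the choice of the 12. It held for 26 (6.15%) of the 423 genes from which they were drawn and for 81 (0.627%) of all genes tested. Gas2l3, a linker of actin and microtubules, showed the same order (44.0 to 74.1, 50.5 to 119 and 17.0 to 38.3 CPM), as did the enzyme of phosphatidylcholine synthesis Pcyt1a (68.4 to 197, 68.6 to 177 and 22.6 to 59.4 CPM). Several of these genes, Lyn, Cd93, Gas7 and Lat2 among them, are also used by myeloid cells, whose marker sum was 1116 to 3500 CPM in NMUR1+ libraries and 184 to 1159 CPM in ILC2 libraries. The part of such RNA was not tested. Lat2 remained of similar level in 4 and Fgl2 in 5 of 8 fits with 1 mouse left out, and the other 9 genes beside Il1rl1 in all 8. Without the 4 mice with over 20% immunoglobulin RNA, Lat2, Cd93, Gas7, Ccrl2, Trf and Pcyt1a no longer met the criterion, and neither did Tcf7, Tbx21, Hpgds and Nkg7 above.

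**Figure D5:**
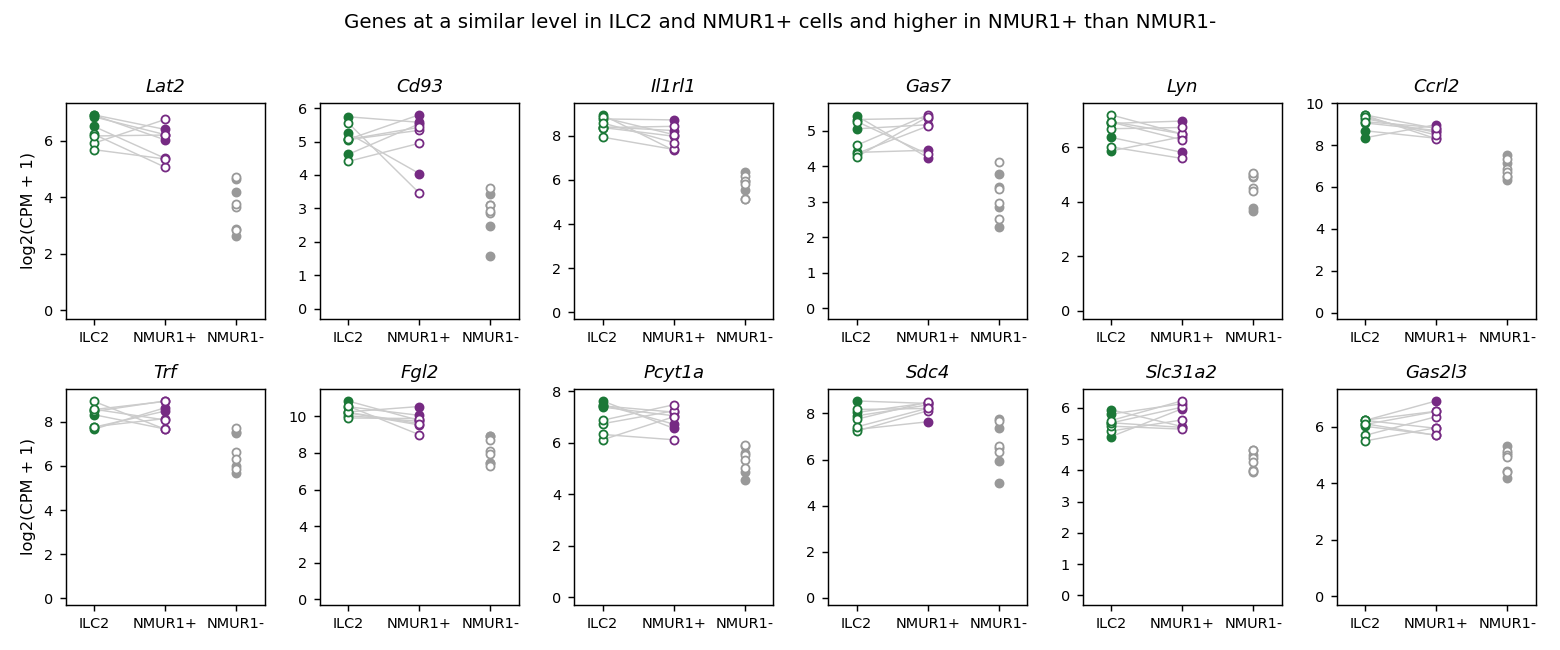
Levels as log2(CPM + 1) of the 12 genes of similar level in ILC2 and NMUR1+ cells with the largest difference between NMUR1+ and NMUR1- cells; each point is 1 library, filled for NMU and open for PBS mice, and grey lines join the ILC2 and NMUR1+ library of 1 mouse. The ILC2 and NMUR1+ points overlap in every panel and the NMUR1- points lie lower, without overlap in every panel but those of Cd93, Trf and Sdc4.

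Few genes passed the edgeR test for a dependence of the population difference on treatment. This interaction of population and treatment passed for 16 of 12909 genes (0.124%), 6 of them immunoglobulin segments. DESeq2 with the mouse as block called 293 genes, so the count depends on the method. Genes that did not pass are not shown to be independent of treatment. Pcsk1, given above, reversed its order between the treatments and did not pass the edgeR interaction test (adjusted p = 0.13). Irf4, a factor of activated lymphocytes, was at 169 to 226 CPM in ILC2 of NMU mice and at 37.2 to 60.0 CPM in ILC2 of PBS mice, against 87.1 to 124.7 and 91.3 to 152 CPM in NMUR1+ cells. ILC2 thus lay above the T cells in NMU mice and below them in PBS mice (extra log2 difference in NMU mice 2.18, SE 0.17, adjusted p = 6.4e-04). Tnfrsf4 was at 57.5 to 93.6 and 7.25 to 19.9 CPM in ILC2 with NMU and PBS, against 2487 to 3710 and 2362 to 3168 CPM in NMUR1+ cells (extra log2 2.27, SE 0.24, adjusted p = 0.0074). Both passed with any 1 mouse left out (highest adjusted p 0.0114 and 0.0298).

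Stx11, a syntaxin of granule release, was at 257 to 365 and 81.3 to 107 CPM in ILC2 with NMU and PBS, and at 388 to 544 and 371 to 504 CPM in NMUR1+ cells (extra log2 1.66, SE 0.19, adjusted p = 0.0112), a result lost without mouse 6 (adjusted p = 0.0627). Cd52, a surface glycoprotein of lymphocytes, was at 614 to 832 and 171 to 238 CPM in ILC2 and at 537 to 823 and 480 to 657 CPM in NMUR1+ cells (extra log2 1.52, SE 0.22, adjusted p = 0.0358), and the result was lost without any 1 of mice 1, 3, 4, 5, 6, 7 and 8. Snx9, a sorting nexin of endocytosis, had no count in the 4 ILC2 libraries of NMU mice and was at 4.08 to 12.3 CPM in those of PBS mice, against 42.4 to 84.2 and 57.5 to 81.0 CPM in NMUR1+ cells (adjusted p = 0.0189, lost without mouse 4, 6 or 8). Nmur1 itself had no such dependence past the test (adjusted p = 0.98); it was at 171 to 328 and 167 to 290 CPM in ILC2 and at 6.13 to 75.2 and 15.4 to 65.0 CPM in NMUR1+ cells.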

How the data were processed

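Bulk RNA-seq was made from sorted cells with a low-input kit that amplifies cDNA, per the labels' protocols, which name no molecular identifiers. The authors deposited raw read counts per gene; the submitters' processing notes name STAR 2.5.3 and mm10. The sources used here do not state the counting program, annotation or strand setting. Of 27179 gene IDs in the table, 25275 (93%) matched RefSeq names; the rest held 0.986% of counts.

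From the counts, edgeR 4.0.16 (R 4.3.3; TMM factors over all 24 libraries; filterByExpr with a minimum count of 10) fitted the 16 libraries with the mouse as block and population as term, robust quasi-likelihood test, Benjamini-Hochberg adjustment over all genes tested, threshold 0.05. The pairing comes from the labels, which name the mouse of each library; residuals of the 2 libraries of a mouse correlated at -0.00667 to 0.222. Treatment dependence is the interaction of population and NMU in that fit. In data simulated for this comparison (12546 genes, 200 changed), 40 of 100 changes of 2-fold and 82 of 100 of 4-fold were called, with 3 false calls. The changed genes all averaged at least 10 CPM and were far fewer than the 3646 called in the data. The adjustment was therefore stricter there, and the rates hold for that setting only. Alternatives used DESeq2 1.42.0 and limma 3.58.1.

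The named genes are a preset marker list, up to 10 genes per direction by size of difference (without immunoglobulin and TCR genes, pseudogenes, predicted genes, clone names and markers of other cells), list members by size or level, 12 genes of similar level highest over NMUR1- cells with the same exclusions, and those with the smallest p of the treatment dependence. The comparison, lists and rules were chosen with earlier results of these data known. Some members of the lists are not reported here by name. P-values and the confidence intervals of the log2 difference measure the spread between mice. Folds and floors from counts cover counting error only.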

Additional observations from a re-analysis of the deposited data

Results flagged for a closer look

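Of 375 groups of 8 libraries tested for the genes named above, 26 held 1 library far from the rest by Dixon's criterion, which chance flags in about 1 in 20 groups. The ILC2 library of mouse 2 stood apart for 4 genes, with Il23r at 17.2 CPM (median of the other 7 libraries 0), Il1r1 at 14.4 CPM (0.286), Il6st at 0.338 CPM (14.6) and Nkg7 at 88.1 CPM (265). That of mouse 7 was high for Cd5 (3.04 CPM), Il12rb2 (1.48 CPM) and Lrrc32 (1.84 CPM), each with a median of 0 in the others, and that of mouse 5 for Foxp3 (0.916 CPM), that of mouse 8 for Ccr6 (1.23 CPM), also against 0. The ILC2 library of mouse 6 was low for Igtp (87.9 against 344 CPM) and high for Calcrl (70.9 against 49.8 CPM). Low values were also found in ILC2 of mouse 1 for Fam184b (6.13 against 45.7 CPM) and Hpgds (14.3 against 58.2 CPM), of mouse 4 for Klrb1b (133 against 264 CPM) and of mouse 8 for Lcp2 (551 against 692 CPM).

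Among NMUR1+ libraries, that of mouse 8 was low for Cd44 (352 against 487 CPM), Cxcr6 (735 against 1275 CPM) and Hlf (9.95 against 30.9 CPM) and high for Bmp2 (3.38 CPM against 0). That of mouse 3 was low for Calcrl (7.59 against 17.6 CPM), Hpgds (20.7 against 42.3 CPM) and Sdc4 (199 against 330.1 CPM). High values were found in mouse 1 for Atp6v0d2 (44.9 against 10.6 CPM), mouse 2 for Runx1t1 (1.24 CPM against 0), mouse 4 for Fam184b (1.29 against 0.0737 CPM) and mouse 6 for Klf5 (16.4 against 0.428 CPM).

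The difference between ILC2 and NMUR1+ cells depended on treatment, by the interaction in edgeR's quasi-likelihood fit, for 7 genes named here. The extra log2 difference in NMU mice was 2.18 for Irf4, 2.27 for Tnfrsf4, 1.66 for Stx11, 1.52 for Cd52, 1.86 for Dusp4 (adjusted p = 0.0457), 1.09 for the integrin chain Itgb2 (adjusted p = 0.0457) and -9.11 for Snx9, a fitted value that depends on the prior count because ILC2 of NMU mice held none of its reads. The result for Itgb2 was lost with any 1 mouse left out, and that for Dusp4 without any 1 of mice 1, 2, 3, 5, 6, 7 and 8.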

How the results depend on the processing

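Of 3760 values for 188 named genes under 20 alternatives, 3459 kept their direction and their side of the threshold or criterion, 239 no longer passed the test, 7 newly passed, 50 no longer met the criterion of similar level, and 5 reversed. With Jchain and Lyz2 as covariates 79 of the 188 stayed as they were and 91 no longer passed. In NMU mice alone 47 no longer passed. Calls fell most under settings with fewer mice or more terms. With Jchain and Lyz2 as covariates 439 genes differed (248 higher in ILC2, 191 in NMUR1+ cells) and 1691 were of similar level. In NMU mice alone 948 differed (444 and 504). In PBS mice alone 2273 differed, 1246 of them higher in NMUR1+ cells. Without the 4 mice with over 20% immunoglobulin RNA 1387 differed (657 and 730). Requiring 2-fold as well left 2151 genes. A similar level within 1.5-fold was met by 1962 genes and at 50 CPM or more by 2617. Leaving out 1 mouse gave 2858 to 3416 different and 4301 to 4730 similar genes. Treatment dependence ranged from 5 to 24 genes with 1 mouse left out, was 4 with immunoglobulin genes left out and 293 by DESeq2. The reversed values were Cd52 0.11 and Irf4 0.82 in NMU mice alone, Csf2rb 0.18 and Pcsk1 -0.62 with the covariates, and Pcsk1 -0.74 in PBS mice alone; the cause was not tested.

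Without the replicate block, 3867 genes differed (1638 higher in ILC2, 2229 in NMUR1+ cells), 4871 were of similar level, 18 depended on treatment and 2137 differed between NMUR1+ and NMUR1- cells. Among named genes, low counts limit values near 0 in 1 population, such as Foxp3 in ILC2 and Bmp2 in NMUR1+ cells.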
